A study of Mus musculus with 6 samples.

Results

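The libraries described here compare a J1 mouse embryonic stem cell line that carries a scramble short hairpin RNA (shRNA) with the unmodified wild-type J1 line, each after retinoic acid (RA) and after vehicle. They were chosen by the labelled genotype and number 4 of the 6 libraries of the series. The scramble line was sampled after 1 µM RA for 48 h and, separately, after ethanol as vehicle for the same time, each as 1 library, and the wild-type line was sampled in the same way. The other 2 libraries come from a line with an shRNA against the arginine methyltransferase gene Carm1 and serve here for the estimate of the spread and for values set alongside. All lines are of strain 129S4/SvJae and were grown on gelatin with LIF, a cytokine that holds mouse stem cells undifferentiated. Each genotype is 1 line, and the labels describe no replicate cultures, so a p-value here reflects only how these libraries vary, which may be technical. Expression is given as FPKM, a read number divided by transcript length and by sequencing depth, and differences as scramble minus wild-type on the scale log2(FPKM + 1), which understates the change of low genes. Of 20460 genes, the test took in 10830, those on autosomes whose average across the 4 libraries reached 1 FPKM.

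A scramble shRNA is a hairpin whose sequence is meant to match no transcript, and it controls for the vector, the selection and the hairpin itself. A line made this way has also passed through selection and extra divisions since it parted from its parent. Mouse embryonic stem cells in culture are known to gain or lose chromosomes or parts of them, to lose or gain imprints at imprinted genes, which are expressed from the allele of a given parent, and to differ in p53 activity. RA binds nuclear receptors, induces Hox and other patterning genes and lowers pluripotency genes.

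Both lines carried the pluripotency markers. The summed level of Pou5f1, Nanog, Sox2, Zfp42, Esrrb and Utf1 was 1361 FPKM with RA and 3065 FPKM with vehicle in the scramble line, against 1963 FPKM with RA and 3071 FPKM with vehicle in the wild-type line. Of the fibroblast markers Lum and Postn were listed at 0 in all 4 libraries and Fbln1 was the most abundant, at 28.8 FPKM with RA and 7.74 FPKM with vehicle in the scramble line, against 18.4 FPKM with RA and 8.47 FPKM with vehicle in the wild-type line. Of the trophoblast markers Elf5 was listed at 0 in all 4, and Gata3 and Cdx2 stayed under 2 FPKM. In the line with the Carm1 hairpin, Carm1 itself was 6.73 FPKM with RA and 8.49 FPKM with vehicle. Carm1 was 29.9 FPKM with RA and 36.1 FPKM with vehicle in the scramble line, against 29.5 FPKM with RA and 37.0 FPKM with vehicle in the wild-type line, which does not tell those 2 lines apart. The libraries summed to 505266 to 537592 FPKM. FPKM carry no read counts, but the steps between low values put the worth of 1 read in the scramble vehicle library at 1.27 times that in the wild-type vehicle library, so that its low values are coarser.

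In a limma fit of line and treatment over all 6 libraries, 72 genes were higher in the scramble line (0.665% of those tested) and 111 were lower (1.02%), at a Benjamini-Hochberg adjusted p under 0.05. All 183 had the same sign with RA and with vehicle, which the fit favours because it averages both treatments. Over all genes the signs matched in 66.4%. Where scramble and wild-type values of a called gene do not overlap, this carries no separate support, because the same libraries gave the call. The share of all genes without such overlap was not counted. By size, with no test, 6 genes (0.0554%) were at least 2-fold higher and 41 (0.379%) at least 2-fold lower under both treatments. With RA, 81 genes (0.748%) stood 2-fold or more above the wild-type line and 86 (0.794%) as far below it, and with vehicle 14 (0.129%) were higher and 75 (0.693%) lower. The difference with RA and the difference with vehicle come from separate libraries. Across genes they had a Pearson r of 0.55 and a Spearman rho of 0.49, and an r of 0.45 among genes outside the shifted chromosome stretches described next. The number of calls is not stable. It was 0 without the scramble RA library and 0 without the scramble vehicle library (limma, with 1323 and 1820 genes at an unadjusted p under 0.05, against 2564), 490 without the wild-type vehicle library, 77 without either Carm1 shRNA library and 0 without a filter on low values (3000 at an unadjusted p under 0.05).

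**Figure D1:**
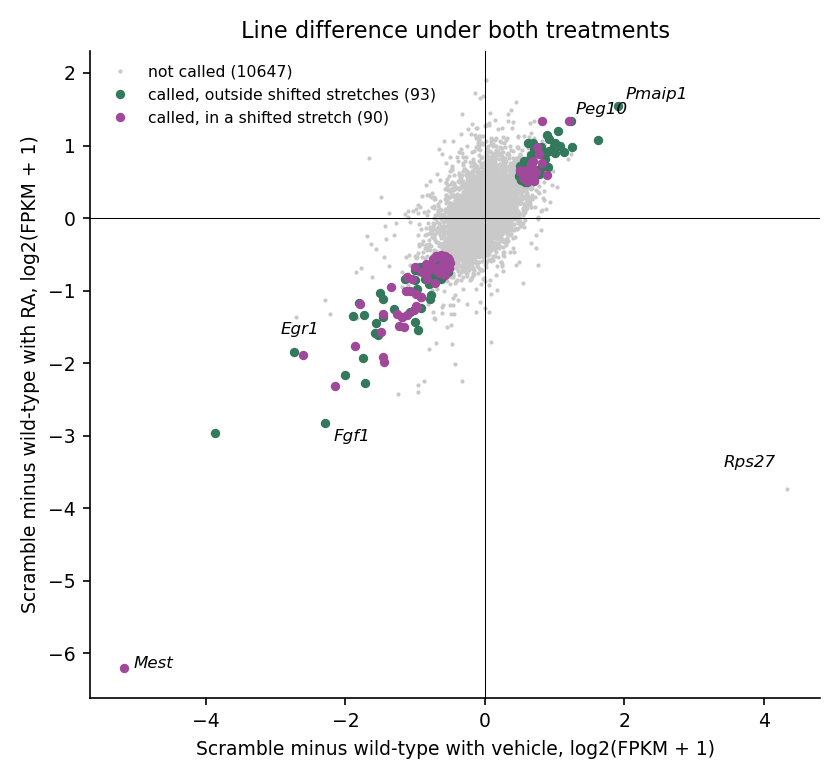
Each point is 1 of 10830 autosomal genes, with the scramble minus wild-type difference (log2(FPKM + 1)) of the vehicle libraries on the x axis and of the RA libraries on the y axis. The 183 genes that passed the limma test lie toward the upper right and the lower left, and 90 of them sit in a shifted chromosome stretch. Mest has the lowest values on both axes, and Rps27 changes sign.

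The differences were not spread evenly over the genome. Genes on chromosome 6 made up 29.5% of the called genes and 4.74% of those tested. The median difference of chromosome 11 genes, relative to the median of all genes, was -0.22 with RA and -0.19 with vehicle, that of chromosome 2 was -0.14 with RA and -0.12 with vehicle, and that of chromosome 6 was 0.22 with RA and 0.16 with vehicle. The medians of the other 16 autosomes lay between -4.52e-05 and 0.05 with RA and between -0.01 and 0.04 with vehicle. On chromosome 11, 688 of 941 genes were below the overall median under both treatments and 69 above it, against 3583 each among all 10830.

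**Figure D2:**
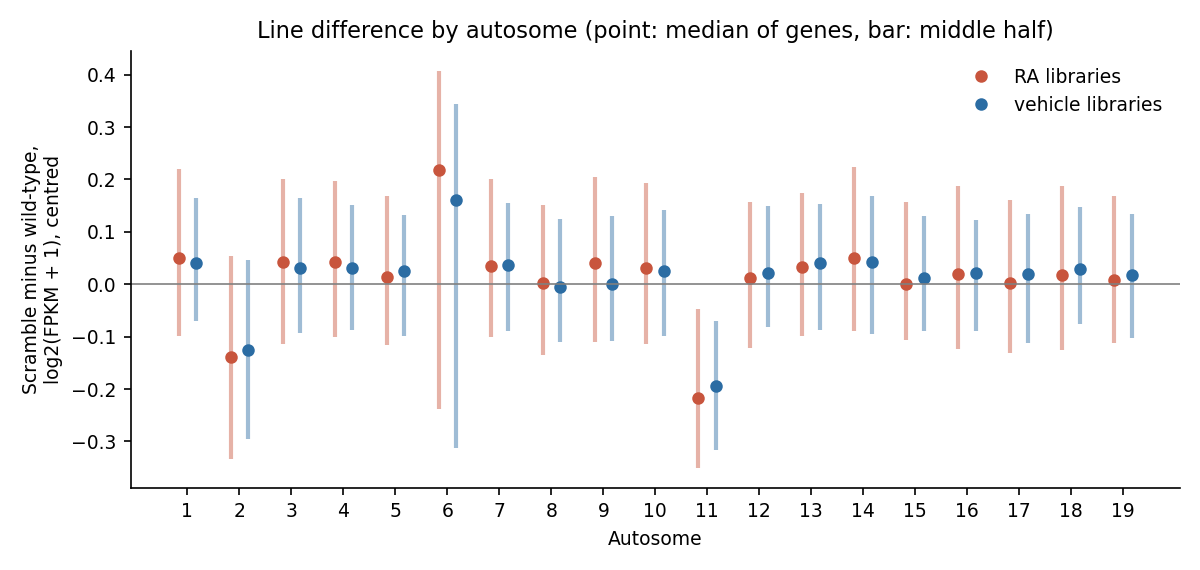
The y axis is the scramble minus wild-type difference on the log2(FPKM + 1) scale after the median of all genes was taken off, for each autosome on the x axis. Points are the median over the genes of a chromosome and bars the middle 50% of its genes, with RA (red) left of vehicle (blue). Chromosomes 2 and 11 lie below 0 and chromosome 6 above it under both treatments, with a wide bar for chromosome 6.

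To find where on a chromosome the level changed, each autosome was divided at points where the mean vehicle difference stepped. For this the difference of each gene was limited to a size of at most 1. A stretch was called shifted where its vehicle median was at least 0.15 from that of all genes. The vehicle values of these stretches chose them and carry no test. The RA values did not enter the division, but earlier results of these data were known when it was set up. Of 31 stretches, 10 were shifted, with 1987 genes. They held 49.2% of the called genes and 18.3% of those tested. The calls use the same vehicle libraries that chose the stretches, so counts of calls within stretches describe them and carry no comparison. Over all genes tested, 0.665% were called higher and 1.02% lower. The shifted stretch nearest the threshold was the whole of chromosome 11, and the unshifted stretch nearest to it was a stretch of 25 genes on chromosome 6 from Plekha8 to Serbp1, at 0.17 with RA and 0.13 with vehicle. Medians of stretches are given relative to the median of all genes, and differences of single genes are not. Coordinates are those of the deposited table, build mm9.

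Chromosome 6 alternated between higher and lower stretches. From Samd9l to Hoxa5 (chromosome 6, 3322257 to 52163066, 146 genes) the median was 0.32 higher with RA and 0.29 higher with vehicle, and 119 of 146 genes were above the overall median under both treatments. From Rpia to Ppp4r2 (70715714 to 100818711, 138 genes) it was -0.44 with RA and -0.47 with vehicle, and 124 of 138 were below under both. From Trnt1 to Lrmp (106719132 to 145123448, 171 genes) it was 0.29 with RA and 0.24 with vehicle. From Lyrm5 to Bicd1 (145159654 to 149507379, 22 genes), next to the end of the chromosome, it was 0.57 with RA and 0.58 with vehicle, and all 22 were higher under both. The Carm1 shRNA line, whose comparison uses the same wild-type libraries, had medians of 0.30, -0.40, 0.29 and 0.59 with RA and 0.25, -0.46, 0.25 and 0.61 with vehicle in the same order. Scramble minus Carm1 shRNA was between -0.06 and 0.02 in these 4 stretches.

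**Figure D3:**
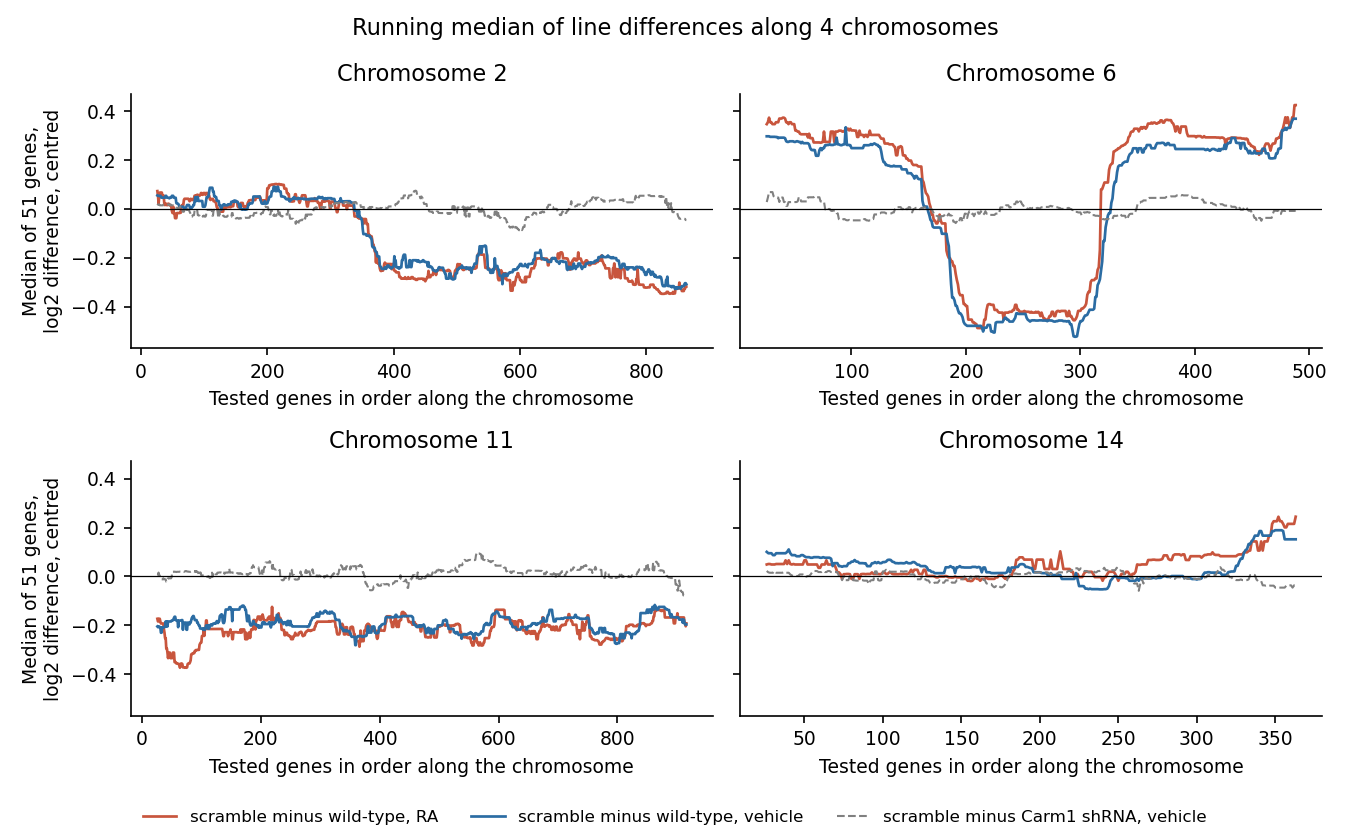
The y axis is the median difference of 51 neighbouring genes (log2 scale, centred on all genes) and the x axis the order of tested genes on chromosomes 2, 6, 11 and 14. Red is scramble minus wild-type with RA, blue the same with vehicle, and the dashed grey line scramble minus Carm1 shRNA with vehicle. On chromosome 6 the scramble minus wild-type lines reach -0.49 with RA and -0.52 with vehicle in the middle and 0.43 with RA and 0.37 with vehicle at the highest, while the dashed line stays close to 0.

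At the far end of chromosome 6, of the 22 genes 11 passed the test, all higher. The 22 had differences from 0.22 to 0.88 with RA and from 0.28 to 0.82 with vehicle. The members named in these stretches were chosen after their values were seen. Ipo8, an importin that carries proteins into the nucleus, was 38.0 and 40.5 FPKM with RA and vehicle in the scramble line, against 23.5 and 25.9 FPKM with RA and vehicle in the wild-type line (0.65 ± 0.08 SE, limma adjusted p = 0.0388). Tmtc1 had the smallest difference with vehicle (0.28, with 0.28 with RA) and did not pass.

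Within the lower stretch of chromosome 6, the 11 tested genes from Eogt to Ppp4r2 (97060938 to 100818711) formed a run of low values. This span was marked out after its values were seen. Its median difference, not taken relative to all genes, was -1.09 with RA and -0.97 with vehicle, and 7 of its genes fell. Rybp, a subunit of variant Polycomb complexes, was 44.2 FPKM with RA and 42.2 FPKM with vehicle in the scramble line, against 104 FPKM with RA and 85.0 FPKM with vehicle in the wild-type line (-1.10 ± 0.09, limma adjusted p = 0.0259). Uba3, the catalytic subunit of the NEDD8-activating enzyme, was 22.6 FPKM with RA and 26.3 FPKM with vehicle, against 65.5 FPKM with RA and 63.3 FPKM with vehicle in the wild-type line (-1.36 ± 0.09, limma adjusted p = 0.0191). Eogt, Tmf1, Arl6ip5, Shq1 and Ppp4r2 also fell. The other 4 that did not pass were Frmd4b (0.12 with RA, -0.30 with vehicle), Mitf, Foxp1 and Gpr27.

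In the rest of that lower stretch the differences were smaller. The stretch as a whole held 28 called genes, all lower, which is 20.3% of its 138. Mcm2, a subunit of the replicative helicase, was 67.0 FPKM with RA and 94.0 FPKM with vehicle in the scramble line, against 116 FPKM with RA and 140 FPKM with vehicle in the wild-type line (-0.67 ± 0.09, limma adjusted p = 0.0448). Tcf7l1, the WNT pathway repressor TCF3 of stem cells, was 18.9 FPKM with RA and 11.1 FPKM with vehicle, against 34.6 FPKM with RA and 24 FPKM with vehicle in the wild-type line (-0.94 ± 0.09, limma adjusted p = 0.0259). The glycolytic enzyme gene Hk2 (-0.60 ± 0.08) and the chaperonin gene Cct7 (-0.58 ± 0.08) fell by less. Vax2, a homeobox gene of the ventral eye, and Trh, which encodes thyrotropin-releasing hormone, stood further apart than their neighbours. Vax2 was 3.01 FPKM with RA and 2.83 FPKM with vehicle in the scramble line, against 13.8 FPKM with RA and 22.4 FPKM with vehicle in the wild-type line (-2.25 ± 0.28, limma adjusted p = 0.0383). Trh was 32.7 FPKM with RA and 29.3 FPKM with vehicle, against 132 FPKM with RA and 81.6 FPKM with vehicle in the wild-type line (-1.71 ± 0.17, limma adjusted p = 0.0277).

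A short stretch of 11 genes on chromosome 6 (52156364 to 54543122) begins inside the HoxA cluster and was uneven, with medians of -0.13 with RA and -0.70 with vehicle. Hox proteins are transcription factors that pattern the body axis, and their genes lie in the order of their use. Hoxa11 was 0.113 FPKM with RA and 0.0745 FPKM with vehicle in the scramble line, against 2.77 FPKM with RA and 2.92 FPKM with vehicle in the wild-type line (-1.81 ± 0.08, limma adjusted p = 0.00663). Hoxa10 was 5.46 FPKM with RA and 0.212 FPKM with vehicle, against 15.6 FPKM with RA and 6.91 FPKM with vehicle in the wild-type line (-2.03 ± 0.31, limma adjusted p = 0.0553). With vehicle both genes were thus near 0 in the scramble line and detected in the wild-type line. The Carm1 shRNA line had 0.0661 FPKM with RA and 0.0876 FPKM with vehicle for Hoxa11. Hoxa4, on the other side of the boundary, rose (0.74 ± 0.10, limma adjusted p = 0.0423), with 43.9 FPKM with RA and 1.74 FPKM with vehicle in the scramble line, against 28.8 FPKM with RA and 0.485 FPKM with vehicle in the wild-type line. Of all 39 Hox genes 22 were tested, of which 1 rose and 1 fell, against 0.665% higher and 1.02% lower over all genes, and 17 were under the filter on low values. Of the tested genes 20 lie in a shifted stretch, so their median of 0.18 with RA and -0.01 with vehicle is not separate from those stretches.

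Chromosome 11 was lower along its whole length. Its 941 genes had running medians between -0.37 and -0.12 with RA and between -0.28 and -0.12 with vehicle, so no window of 51 genes reached 0. There 1 gene rose and 15 fell of 941 (1.7% called), against 0.665% higher and 1.02% lower over all genes. The Carm1 shRNA line, set against the same wild-type libraries, had a chromosome 11 median of -0.22 with RA and -0.20 with vehicle. Suz12, a core subunit of the Polycomb repressive complex PRC2, was 63.9 FPKM with RA and 70.7 FPKM with vehicle in the scramble line, against 106 FPKM with RA and 114 FPKM with vehicle in the wild-type line (-0.71 ± 0.08, limma adjusted p = 0.0317). Tcf7, a WNT effector, fell too (-0.64 ± 0.08, limma adjusted p = 0.0355). Sox15 was 1.03 FPKM with RA and 2.05 FPKM with vehicle, against 2.93 FPKM with RA and 6.72 FPKM with vehicle in the wild-type line (-1.15 ± 0.14, limma adjusted p = 0.0355). Trp53, which encodes p53 and lies on this chromosome, was 218 FPKM with RA and 317 FPKM with vehicle in the scramble line, against 308 FPKM with RA and 369 FPKM with vehicle in the wild-type line, and did not pass (-0.36 ± 0.10, limma adjusted p = 0.129).

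Chromosome 2 stepped down part of the way along. From Ptprj to Slmo2 (90269913 to 174298442, 484 genes) the median was -0.25 with RA and -0.24 with vehicle, and 377 of 484 genes were below the overall median under both treatments. Further on, the median was -0.30 with RA and -0.29 with vehicle over 43 genes from Fam217b to Polr3k (178149239 to 181605531). In these stretches, in the same order, Carm1 shRNA minus wild-type had medians of -0.24 and -0.33 with RA and of -0.24 and -0.26 with vehicle. Between them lies a cluster of 8 zinc finger and predicted genes (174887050 to 177813130) with a median of -0.86 with RA and -0.71 with vehicle, of which 6 fell. Etohi1, a zinc finger gene of this cluster, was 8.15 FPKM with RA and 5.74 FPKM with vehicle in the scramble line, against 13.7 FPKM with RA and 10.2 FPKM with vehicle in the wild-type line (-0.71 ± 0.09, limma adjusted p = 0.0388). Genes of this cluster are near copies of one another, so the counting may have divided reads among them. In the long stretch, Srxn1, an antioxidant enzyme gene, was 26.4 FPKM with RA and 17.2 FPKM with vehicle, against 55.4 FPKM with RA and 35.1 FPKM with vehicle in the wild-type line (-1.01 ± 0.09, limma adjusted p = 0.0259).

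On chromosome 14 the 23 genes from Diap3 to Slitrk5 (87056130 to 112082357) were higher, with a median of 0.50 with RA and 0.49 with vehicle. Under both treatments 21 of 23 were above the overall median, and 6 rose. Carm1 shRNA minus wild-type had a median of 0.44 with RA and 0.53 with vehicle there. Commd6 was 37.6 FPKM with RA and 27.8 FPKM with vehicle in the scramble line, against 23.9 FPKM with RA and 17 FPKM with vehicle in the wild-type line (0.66 ± 0.08, limma adjusted p = 0.0343). Slitrk5, a neuronal membrane protein gene, was 6.91 FPKM with RA and 1.77 FPKM with vehicle, against 2.13 FPKM with RA and 0.577 FPKM with vehicle in the wild-type line (1.07 ± 0.14, limma adjusted p = 0.0399). Klf12 had the lowest difference with RA (-0.05) and Ednrb, the endothelin receptor gene, the lowest with vehicle (0.02, against 1.29 with RA). Genomic DNA was not assayed in these libraries.

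The single largest difference was at Mest, an imprinted gene expressed from the paternal allele that encodes a hydrolase-like protein of mesoderm. Mest (chromosome 6, 30683506 to 30698466) was 1.82 FPKM with RA and 1.09 FPKM with vehicle in the scramble line, against 207 FPKM with RA and 74.7 FPKM with vehicle in the wild-type line. The scramble level was 0.879% of the wild-type level with RA and 1.46% with vehicle (-5.69 ± 0.28, limma adjusted p = 0.00853). The Carm1 shRNA line had 1.91 FPKM with RA and 1.31 FPKM with vehicle. Mest lies in the stretch of chromosome 6 that was higher in the scramble line, and its 6 tested neighbours from Zc3hc1 to Mkln1 had differences from 0.27 to 0.49 with RA and from 0.13 to 0.30 with vehicle. Copg2, whose annotated span overlaps that of Mest by 56 bases, was 48.7 FPKM with RA and 36.4 FPKM with vehicle in the scramble line, against 40.2 FPKM with RA and 33.1 FPKM with vehicle in the wild-type line.

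The sequence around the CpG-richest start of Mest, of 3 in the table, is shown because imprinting at this gene is known to act through DNA methylation of CpG sites at its promoter. It is taken from RefSeq on build GRCm38.p6, chr6:30737800-30738099, plus strand, and runs from 250 bases before the start to 50 after it, with each CpG in capitals. It holds 17 CpG, and 31.4% of the 32851 promoters in the table hold at least as many. DNA methylation was not measured here.
Mest: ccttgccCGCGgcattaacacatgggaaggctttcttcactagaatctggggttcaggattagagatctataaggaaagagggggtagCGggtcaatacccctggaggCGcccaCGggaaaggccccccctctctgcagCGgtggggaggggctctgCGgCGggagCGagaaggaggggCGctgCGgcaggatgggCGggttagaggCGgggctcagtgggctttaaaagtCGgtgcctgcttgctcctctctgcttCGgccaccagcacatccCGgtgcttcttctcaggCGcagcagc

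Of 43 listed imprinted genes, Mest among them, 35 were in the table and 26 were tested. Of these 2 rose and Mest alone fell, against 0.665% higher and 1.02% lower over all genes. Under both treatments 12 were higher (46.2%) and 8 lower (30.8%), against 35.8% higher and 30.7% lower over all genes, and the median was 0.17 with RA and 0.07 with vehicle, against 0.04 and -0.01 over all genes. Peg10, a retrotransposon-derived gene of the placenta that is also expressed from the paternal allele, was 403 FPKM with RA and 91.0 FPKM with vehicle in the scramble line, against 159 FPKM with RA and 38.9 FPKM with vehicle in the wild-type line (1.27 ± 0.18, limma adjusted p = 0.0466). Its imprinted neighbour Sgce, which starts 101 bases away in the table, was 21.0 FPKM with RA and 2.13 FPKM with vehicle, against 8.73 FPKM with RA and 0.970 FPKM with vehicle in the wild-type line (0.92 ± 0.15, limma adjusted p = 0.0604). Both scramble values of Peg10 and Sgce lay above the wild-type value of the same treatment, on the same stretch of chromosome 6 as Mest. Plagl1, a zinc finger regulator of the imprinted network on chromosome 10, rose (0.67 ± 0.09, limma adjusted p = 0.0452). It was 12.5 FPKM with RA and 4.99 FPKM with vehicle in the scramble line, against 7.79 FPKM with RA and 2.64 FPKM with vehicle in the wild-type line. Grb10, a growth inhibitor on chromosome 11, was 64.4 FPKM with RA and 55.0 FPKM with vehicle, against 194 FPKM with RA and 107 FPKM with vehicle in the wild-type line (-1.26 ± 0.21, limma adjusted p = 0.0627). The cell cycle inhibitor gene Cdkn1c was 4.48 FPKM with RA and 2.08 FPKM with vehicle, against 24.9 FPKM with RA and 4.62 FPKM with vehicle in the wild-type line (-1.55 ± 0.31, limma adjusted p = 0.0773).

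**Figure D4:**
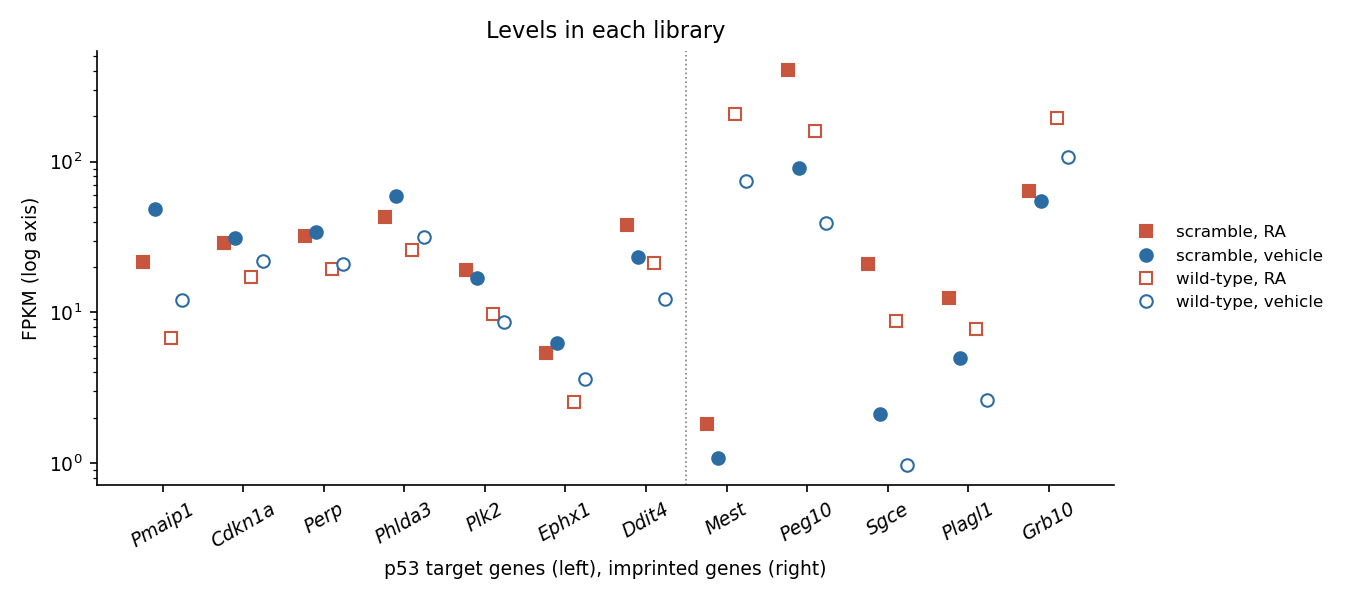
The y axis is FPKM on a log axis, with 1 point per library for 7 p53 target genes (left of the dotted line) and 5 imprinted genes (right). Filled points are the scramble line and open points the wild-type line, squares RA and circles vehicle. The 7 p53 targets are those of 33 tested that were called higher, so their direction follows from the choice. Of the 33, 4 were lower under both treatments. Mest stands at 1.82 and 1.09 FPKM in the scramble line with RA and vehicle against 207 and 74.7 FPKM in the wild-type line.

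Genes of the p53 and stress list were mostly higher in the scramble line. Of 36 listed genes 33 were tested, of which 7 rose and 1 fell, against 0.665% higher and 1.02% lower over all genes. Under both treatments 23 of 33 were higher (69.7%) and 4 lower, against 35.8% higher and 30.7% lower over all genes. The list's median was 0.24 with RA and 0.33 with vehicle. Outside the shifted stretches 21 of 28 were higher under both treatments and 1 lower, against 3456 higher and 2113 lower of all 8843 tested genes there. All 7 that rose are outside those stretches.

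Pmaip1, which encodes the pro-apoptotic protein NOXA, had the largest rise of all called genes. It was 21.7 FPKM with RA and 48.4 FPKM with vehicle in the scramble line, against 6.79 FPKM with RA and 12.2 FPKM with vehicle in the wild-type line (1.73 ± 0.19, limma adjusted p = 0.0317). Cdkn1a, the cell cycle inhibitor p21, was 28.7 FPKM with RA and 31.4 FPKM with vehicle, against 17.1 FPKM with RA and 21.9 FPKM with vehicle in the wild-type line (0.61 ± 0.09, limma adjusted p = 0.0488). Plk2, a polo-like kinase gene, was 19 FPKM with RA and 16.9 FPKM with vehicle, against 9.72 FPKM with RA and 8.65 FPKM with vehicle in the wild-type line (0.90 ± 0.08, limma adjusted p = 0.0259). For all 3 genes both scramble values lay above both wild-type values, but the same libraries gave the calls, so this adds no support. Phlda3, an inhibitor of AKT (0.81 ± 0.09), Perp, a membrane protein of apoptosis and adhesion (0.68 ± 0.08), Ephx1, an epoxide hydrolase gene (0.76 ± 0.11), and Ddit4, an inhibitor of mTORC1 (0.84 ± 0.08), rose as well. The Carm1 shRNA line had 29.0 FPKM with RA and 37.2 FPKM with vehicle for Pmaip1, and 34.1 and 39.5 FPKM for Cdkn1a.

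Other p53 targets stood higher by less and did not pass. Mdm2, the ubiquitin ligase that degrades p53, was 47.5 FPKM with RA and 50.8 FPKM with vehicle in the scramble line, against 42.4 FPKM with RA and 38.2 FPKM with vehicle in the wild-type line (0.28 ± 0.09, limma adjusted p = 0.159). Bax, Bbc3 and Ccng1 had differences of 0.14, 0.33 and 0.25 with RA and of 0.20, 0.44 and 0.33 with vehicle. Chac1, a glutathione-degrading enzyme gene of the unfolded protein response on chromosome 2, fell (-1.0 ± 0.09, limma adjusted p = 0.0259).

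The promoter of Cdkn1a is shown because it was the only one of those of the called p53 targets to hold a match to the p53 half-site. The motif was searched as the consensus half-site of p53, which reads the same on both strands, in RefSeq promoters of 250 bases before to 50 after each start (GRCm38.p6). It was found in 1 of 6 promoters of the 5 called targets that the table holds, and in 8.36% of all 32851. The upstream start of Cdkn1a, chr17:29090729-29091028 on the plus strand, holds 2 matches, given in capitals. A match is a description of these letters and shows no binding.
Cdkn1a: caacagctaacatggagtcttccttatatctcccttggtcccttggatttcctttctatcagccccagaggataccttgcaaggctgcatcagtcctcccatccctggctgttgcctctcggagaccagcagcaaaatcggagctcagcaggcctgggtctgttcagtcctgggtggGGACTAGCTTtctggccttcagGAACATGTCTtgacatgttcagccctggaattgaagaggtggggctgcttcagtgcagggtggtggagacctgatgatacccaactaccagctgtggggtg

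Outside the lists, the called genes lowest in the scramble line came from unrelated families. Fgf1, a growth factor gene (chromosome 18, 38998327 to 39078353), was 0.607 FPKM with RA and 0.556 FPKM with vehicle in the scramble line, against 10.4 FPKM with RA and 6.61 FPKM with vehicle in the wild-type line (-2.56 ± 0.19, limma adjusted p = 0.0191). Fabp3, the heart fatty acid-binding protein gene (chromosome 4, 129986022 to 129992707), was 27.8 FPKM with RA and 49.4 FPKM with vehicle, against 108 FPKM with RA and 168 FPKM with vehicle in the wild-type line (-1.83 ± 0.12, limma adjusted p = 0.0190). Pax2, a transcription factor gene of kidney and eye (chromosome 19, 44831884 to 44912359), was 0.751 FPKM with RA and 0.552 FPKM with vehicle, against 7.49 FPKM with RA and 4.12 FPKM with vehicle in the wild-type line (-2.0 ± 0.15, limma adjusted p = 0.0191). None of these 3 lies in a shifted stretch. Their scramble values did not overlap the wild-type ones, but the same libraries gave the calls, so this adds no support. Igf2bp2, an RNA-binding protein gene (chromosome 16, 22059082 to 22163372), was 6.65 FPKM with RA and 7.69 FPKM with vehicle, against 22.3 FPKM with RA and 24.1 FPKM with vehicle in the wild-type line (-1.57 ± 0.08, limma adjusted p = 0.00853). In the Carm1 shRNA line, Fgf1, Fabp3, Pax2 and Igf2bp2 were 0.477, 16.0, 1.24 and 8.31 FPKM with RA. With vehicle they were 0.679, 34.8, 0.785 and 9.09 FPKM there.

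The immediate early gene Egr1, a target of ERK signalling (chromosome 18, 35020861 to 35024610), was 2.07 FPKM with RA and 7.53 FPKM with vehicle in the scramble line, against 10.1 FPKM with RA and 55.6 FPKM with vehicle in the wild-type line (-2.29 ± 0.21, limma adjusted p = 0.0259). The Carm1 shRNA line had 1.22 FPKM with RA and 7.53 FPKM with vehicle for Egr1. Egr1 was the 1 called member of 29 tested immediate early and ERK feedback genes, against 0.665% higher and 1.02% lower over all genes. Fos (-0.51 with RA, -1.09 with vehicle) and Dusp4 (-0.11 with RA, -1.44 with vehicle) did not pass. Of the 29, 15 were higher in the scramble line with RA and 11 with vehicle, and the median was 0.04 with RA and -0.05 with vehicle. Acsf3, a mitochondrial malonyl-CoA synthetase gene (-1.58 ± 0.09), and Hist3h2ba (-1.53 ± 0.17) fell too. Rpl39l, a ribosomal protein gene and near copy of Rpl39, was 0.270 FPKM with RA and 0.394 FPKM with vehicle in the scramble line, against 4.70 FPKM with RA and 4.59 FPKM with vehicle in the wild-type line, and is uncertain because reads can be split between copies. Amd1 shares its span with Amd2 in the table (14722 bases). Its call (-3.42 ± 0.24) has no counterpart in the sum of both, which was 80.2 FPKM with RA and 102 FPKM with vehicle in the scramble line, against 78.0 FPKM with RA and 91.7 FPKM with vehicle in the wild-type line.

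Among the genes that rose, several were at least 2-fold higher under both treatments. Nckap1l, a WAVE complex subunit gene of blood cells (chromosome 15, 103284256 to 103329231), was 8.05 FPKM with RA and 3.73 FPKM with vehicle in the scramble line, against 2.59 FPKM with RA and 1.01 FPKM with vehicle in the wild-type line (1.28 ± 0.08, limma adjusted p = 0.0151). Zfp488, a zinc finger gene (chromosome 14, 34780256 to 34791950), was 47.6 FPKM with RA and 20.7 FPKM with vehicle, against 20.2 FPKM with RA and 9.55 FPKM with vehicle in the wild-type line (1.12 ± 0.08, limma adjusted p = 0.0191). Miip and Fv1, the retrovirus restriction gene, lie 259 bases apart on chromosome 4 and both rose (1.35 ± 0.18 and 1.00 ± 0.09). Cox6b2, the testis form of a cytochrome c oxidase subunit, was 24.4 FPKM with RA and 30.4 FPKM with vehicle in the scramble line, against 11.4 FPKM with RA and 14.6 FPKM with vehicle in the wild-type line (1.02 ± 0.09, limma adjusted p = 0.0259). Rnf17, a Tudor gene of germ cells (1.11 ± 0.10), Anxa1 (1.02 ± 0.11), Lonrf2 (0.99 ± 0.11) and Ccdc114 (0.92 ± 0.08) also rose. In the Carm1 shRNA line, Nckap1l, Zfp488 and Cox6b2 were 12.6, 62.8 and 24.6 FPKM with RA. With vehicle they were 6.67, 30.1 and 27.2 FPKM there.

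Of the regulators on the lists, Cdx1, a caudal homeobox gene that RA and WNT induce, was 61.2 FPKM with RA and 10.4 FPKM with vehicle in the scramble line, against 30.3 FPKM with RA and 4.43 FPKM with vehicle in the wild-type line (1.03 ± 0.12, limma adjusted p = 0.0350). Myc, a growth-promoting transcription factor, was 25.4 FPKM with RA and 81.9 FPKM with vehicle, against 16.3 FPKM with RA and 47.6 FPKM with vehicle in the wild-type line (0.69 ± 0.08, limma adjusted p = 0.0380). Rb1, a brake on the cell cycle, rose by 0.56 ± 0.08. Of 38 tested proliferation genes 3 rose, namely Myc, Rb1 and Cdkn1a, and 1 fell, Mcm2, against 0.665% higher and 1.02% lower over all genes. Under both treatments 19 of the 38 were lower, against 30.7% of all genes. Of these 38, 10 lie in shifted stretches, and outside those stretches 10 of 28 were lower, against 2113 of all 8843 tested genes there. Zic2, a transcription factor of primed cells, fell (-0.79 ± 0.09, limma adjusted p = 0.0317), and so did the metallothionein gene Mt2 (-0.62 ± 0.08, limma adjusted p = 0.0370). Mt2 was 64.2 FPKM with RA and 212 FPKM with vehicle in the scramble line, against 98.8 FPKM with RA and 327 FPKM with vehicle in the wild-type line. In the protocadherin clusters, whose cell adhesion genes share exons and hence reads, 12 of 58 genes were tested, and 9 were higher under both treatments and 0 lower, against 35.8% higher and 30.7% lower over all genes. Of these, Pcdhga11 (0.62 ± 0.08) and Pcdhga12 (0.86 ± 0.08) rose, against 0.665% of all genes.

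Among the interferon and RNA sensing genes 1 of 21 passed, against 0.665% higher and 1.02% lower over all genes. It was Mavs, the mitochondrial adaptor of RNA sensing, which lies in the lower stretch of chromosome 2 and fell (-0.62 ± 0.09, limma adjusted p = 0.0483). Of 22 tested genes of small RNA processing, the machinery that a hairpin uses, 0 passed in limma and 4 had an unadjusted p under 0.05, with a median of -0.000344 with RA and 0.05 with vehicle. In all, 14 of the 25 lists with a tested member held no called gene, in limma, over 275 tested members, of which 68 (24.7%) had an unadjusted p under 0.05, against 23.7% of all genes. Their medians lay between -0.26 and 0.45 with RA and between -0.46 and 0.12 with vehicle. Among these are the naive pluripotency, retinoid, extraembryonic endoderm, neural, DNA methylation, germ cell, heat shock and arginine methyltransferase lists.

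The line difference was not the same with RA and with vehicle in these single libraries. Taken with its sign, the scramble minus wild-type difference was at least 2-fold more positive with RA than with vehicle in 104 genes (0.960%), and at least 2-fold more negative in 22 (0.203%), whichever line was higher. After quantile normalization the split was 74 and 37. No test is possible here, since each of the 4 libraries is then a parameter. Genes that respond to RA were chosen from the Carm1 shRNA line, whose libraries are not in this comparison. That line shares stretch medians and some responses with the scramble line (the RA response of Krt8 was 2.12 there), so the choice favours genes that respond more in both shRNA lines, and the values that follow are a description. The 996 genes that were at least 2-fold higher with RA in that line had a median scramble minus wild-type difference of 0.38 with RA and -0.05 with vehicle. Of these, 845 (84.8%) were higher in the scramble line with RA and 424 (42.6%) with vehicle, against 57.6% with RA and 47.5% with vehicle over all genes. Their median RA response was 1.5 in the scramble line and 1.10 in the wild-type line. The 194 genes at least 2-fold lower with RA in the Carm1 shRNA line had a median line difference of -0.21 with RA and 0.01 with vehicle, and a median RA response of -1.25 in the scramble line and -1.01 in the wild-type line.

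**Figure D5:**
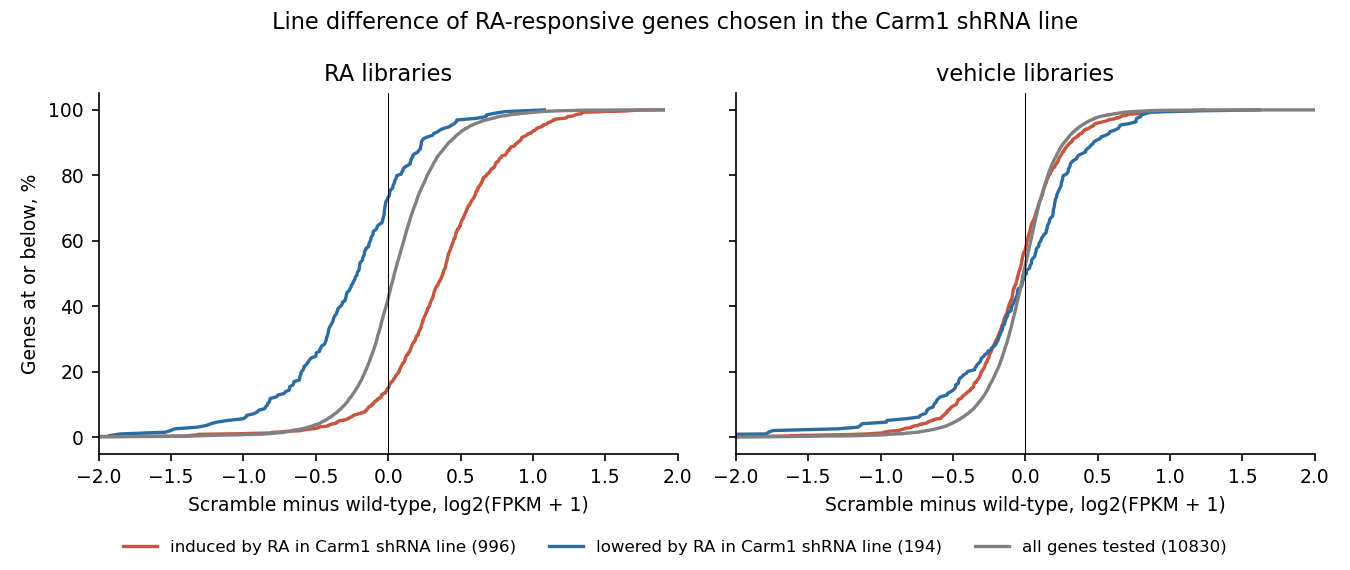
The x axis is the scramble minus wild-type difference on the log2(FPKM + 1) scale, drawn from -2 to 2, and the y axis the percent of genes at or below it, for the RA libraries (left) and the vehicle libraries (right). Red marks the 996 genes raised and blue the 194 genes lowered by RA in the Carm1 shRNA line, and grey all 10830 tested genes. The 3 curves lie close together with vehicle and stand apart with RA, with medians of 0.38, -0.21 and 0.04.

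The single genes that follow were chosen after their values were seen or for a large change between treatments. Their line differences with RA were larger than the median of 0.38 of the 996 genes. Krt8, a simple epithelial keratin gene, was 23.4 FPKM with RA and 3.90 FPKM with vehicle in the scramble line, against 10.7 FPKM with RA and 5.74 FPKM with vehicle in the wild-type line. Its RA response was 2.32 in the scramble line and 0.79 in the wild-type line on the log2 scale. Cldn4, a tight junction gene, was 12 FPKM with RA and 5.44 FPKM with vehicle in the scramble line, against 4.54 FPKM with RA and 6.06 FPKM with vehicle in the wild-type line. It was thus higher with RA in the scramble line and lower with RA in the wild-type line. The BMP target Id3 was 60.6 FPKM with RA and 18.4 FPKM with vehicle in the scramble line, against 21.7 FPKM with RA and 23.3 FPKM with vehicle in the wild-type line. Dlk1, an imprinted inhibitor of differentiation, was 28.0 FPKM with RA and 0.484 FPKM with vehicle in the scramble line, against 7.82 FPKM with RA and 0.633 FPKM with vehicle in the wild-type line. Plxna2, a semaphorin receptor gene, was 18.2 FPKM with RA and 0.847 FPKM with vehicle, against 5.11 FPKM with RA and 0.942 FPKM with vehicle in the wild-type line. Pigz, a mannosyltransferase gene, was 7.71 FPKM with RA and 0.128 FPKM with vehicle, against 1.33 FPKM with RA and 0.121 FPKM with vehicle in the wild-type line. For these genes the lines lay closer together with vehicle than with RA. Id3, Dlk1, Plxna2 and Pigz were chosen for such a change, so this carries no support. In the Carm1 shRNA line these 4 genes were 64.5, 23.9, 15.4 and 7.46 FPKM with RA. Id3, with an RA response of 0.97 in the Carm1 shRNA line, was not among the 996 genes.

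Olig3, Igf2, Emx2 and Sox21, chosen for a change in the other direction, reached less with RA in the scramble line. Olig3, a neural transcription factor gene, was 6.28 FPKM with RA and 0.111 FPKM with vehicle in the scramble line, against 22.7 FPKM with RA and 0.0496 FPKM with vehicle in the wild-type line. Igf2, an imprinted growth factor gene, was 0.747 FPKM with RA and 0.0652 FPKM with vehicle, against 7.31 FPKM with RA and 0.336 FPKM with vehicle in the wild-type line. Emx2, a homeobox gene of the forebrain, was 0.309 FPKM with RA and 0.0157 FPKM with vehicle, against 4.26 FPKM with RA and 0.368 FPKM with vehicle in the wild-type line. Sox21, a SOX family gene of neural progenitors, was 1.36 FPKM with RA and 2.28 FPKM with vehicle, against 11.4 FPKM with RA and 5.36 FPKM with vehicle in the wild-type line. All 4 were lower with RA in the scramble line, and Olig3 and Emx2 were near 0 with vehicle in both lines. In the Carm1 shRNA line, Olig3, Igf2, Emx2 and Sox21 were 4.32, 0.603, 0.109 and 1.97 FPKM with RA. The neural gene Sox1 was also lower, at 13.8 FPKM with RA and 10.4 FPKM with vehicle in the scramble line, against 33.0 FPKM with RA and 15.1 FPKM with vehicle in the wild-type line (-0.85 ± 0.21, limma adjusted p = 0.0986). The neural list as a whole did not follow these genes. Of its 12 tested members, 9 were higher in the scramble line with RA and 5 with vehicle. Its median was 0.15 with RA and -0.13 with vehicle, against 0.04 and -0.01 over all genes.

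Most pluripotency genes were lower in the scramble line with RA, and with vehicle they lay on either side. Of 38 tested naive and general pluripotency genes, 30 were lower with RA and 20 with vehicle, and the median was -0.26 with RA and -0.03 with vehicle, against 0.04 and -0.01 over all genes. Over both treatments 0 passed in limma, of 42 listed, and 12 had an unadjusted p under 0.05. Utf1, a chromatin factor of undifferentiated cells, was 52.6 FPKM with RA and 336 FPKM with vehicle in the scramble line, against 101 FPKM with RA and 324 FPKM with vehicle in the wild-type line. Tdgf1, the NODAL co-receptor gene, was 165 FPKM with RA and 474 FPKM with vehicle, against 325 FPKM with RA and 518 FPKM with vehicle in the wild-type line. Esrrb, an orphan nuclear receptor gene, was 90.9 FPKM with RA and 225 FPKM with vehicle, against 150 FPKM with RA and 252 FPKM with vehicle in the wild-type line. Nanog differed by -0.23 with RA and -0.05 with vehicle, at 370 FPKM with RA and 416 FPKM with vehicle in the scramble line, against 434 FPKM with RA and 431 FPKM with vehicle in the wild-type line. In bulk samples, fewer cells that keep a gene on and less of its RNA per cell cannot be told apart.

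Marker sums of other cell types are given with 1 library on each side and no test. The fibroblast marker sum was 35.5 FPKM with RA and 9.38 FPKM with vehicle in the scramble line, against 21.8 FPKM with RA and 10.6 FPKM with vehicle in the wild-type line, with 4 of 7 markers reaching 1 FPKM in any of the 4 libraries. Most of this sum was Fbln1, at 28.8 FPKM with RA in the scramble line and 18.4 FPKM with RA in the wild-type line. The extraembryonic endoderm sum was 19.7 FPKM with RA and 2.62 FPKM with vehicle, against 16.1 FPKM with RA and 1.96 FPKM with vehicle in the wild-type line, with 4 of 5. The neural sum was 88.6 FPKM with RA and 119 FPKM with vehicle, against 107 FPKM with RA and 139 FPKM with vehicle in the wild-type line, with 3 of 4. Most of it was Tubb3, at 72.0 FPKM with RA and 108 FPKM with vehicle in the scramble line, against 65.9 FPKM with RA and 122 FPKM with vehicle in the wild-type line. The trophoblast sum was 3.42 FPKM with RA and 0.236 FPKM with vehicle, against 1.93 FPKM with RA and 0.205 FPKM with vehicle in the wild-type line, with 2 of 4 markers reaching 1 FPKM. The mesendoderm sum was 2.36 FPKM with RA and 3.34 FPKM with vehicle, against 1.68 FPKM with RA and 2.12 FPKM with vehicle in the wild-type line, with 1 of 4. The part of these cell types in the RA differences was not tested.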

How the data were processed

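RNA was extracted with an RNeasy Plus kit, made into TruSeq libraries and read as single-end 51 nt reads on a HiSeq2500, per the labels' protocols. The authors deposited FPKM per gene. TopHat2, Cufflinks and build mm9 are named in the submitters' processing notes, with no version, and the strand setting is not given in any source used. From the 20793 deposited rows, 2 marked as failed were left out, and of rows that share a name the one with the highest mean was used. Genes of chromosomes X and Y were left out. Values were analysed as log2(FPKM + 1) with limma 3.58.1 in R 4.3.3, with line and treatment as terms over 6 libraries (2 residual degrees of freedom) and Benjamini-Hochberg adjustment over 10830 genes. The procedures were tested on simulated data. Depth is unknown, so no counting intervals are given. Named genes are the 12 called in each direction that rank highest by the smaller of their RA and vehicle differences (clone names and predicted genes left out), the 6 with the largest change between treatments in each direction, and called list members; other genes were chosen after their values were seen. The scramble line, the stretches and the 26 gene lists were chosen with earlier results of these data known. Alternatives were other pseudocounts, filters, scalings and library sets.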

Additional observations from a re-analysis of the deposited data

Results flagged for a closer look

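In 8 of the 12 genes named for their change between treatments, the scramble minus wild-type difference had opposite signs with RA and with vehicle. With 1 library per line and treatment this change was not tested. The difference with RA minus that with vehicle was 2.50 for Eif3j2, 1.86 for Dlk1, 1.79 for B2m, 1.77 for Id3 and 1.72 for Plxna2. It was -8.06 for Rps27, -1.79 for Olig3 and -1.45 for Sfrp2. The vehicle values of Dlk1, Plxna2 and Olig3 were under 1 FPKM in both lines, so the sign there rests on low values. Eif3j2 shares its span with Eif3j1, and Rps27 shares its span with Gm9846, so reads can be split between the copies. The sum of Eif3j2 and Eif3j1 differed by -0.45 with RA and -0.29 with vehicle, with no change of sign. The sum of Rps27 and Gm9846 was 2377 FPKM with RA and 2843 FPKM with vehicle in the scramble line, against 2514 FPKM with RA and 2650 FPKM with vehicle in the wild-type line. B2m, the light chain of class I histocompatibility antigens, was 63.4 FPKM with RA and 9.70 FPKM with vehicle in the scramble line, against 51.7 FPKM with RA and 29.2 FPKM with vehicle in the wild-type line. Sfrp2, a secreted WNT inhibitor gene, was 13.0 FPKM with RA and 11.9 FPKM with vehicle, against 25.1 FPKM with RA and 7.82 FPKM with vehicle in the wild-type line. In the Carm1 shRNA line, B2m was 58.9 FPKM with RA and 8.21 FPKM with vehicle, and Sfrp2 was 9.79 FPKM with RA and 7.92 FPKM with vehicle.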

How the results depend on the processing

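The 183 calls became 77 with the 4 libraries alone, 810 with a trended prior, 53 with a pseudocount of 0.1, 0 with no filter, 374 with a mean of at least 5 FPKM and 90 after quantile normalization, and ranged from 0 to 490 when 1 library was left out. Of the main calls, 67 were shared with the 4 libraries alone and 180 with the trended prior. Genes 2-fold apart under both treatments numbered 96 with a pseudocount of 0.1, against 47. With vehicle alone they numbered 243 at that pseudocount, against 89. With RA alone they numbered 290 at that pseudocount and 99 at a mean of at least 5 FPKM, against 167, and for a change between treatments 285 and 71, against 126. Alternatives for stretch, list and RA-set medians were chosen after seeing the data. The median difference over both treatments of the stretch from Hoxa6 to Fkbp14 was -0.41 and turned to 0.0736 when genes averaging under 5 FPKM were left out. The cause was not tested. Of the 24 genes named for their size of difference, over all alternatives 259 values stayed past the threshold and 92 did not, with none turned in sign. All 24 genes lost their call with no filter on low values. The 4 libraries alone and leaving out either Carm1 shRNA library gave the same result, so these alternatives are not separate checks. The trended prior, the filters and the 4 libraries alone leave the difference itself unchanged, so its sign could not turn there. With 1 library per line and treatment, the calls rest on few degrees of freedom. The fit pairs the lines by treatment, which is one of its terms, and the labels give no replicate numbers for any further pairing.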
